A study of Mus musculus with 6 samples.

Results

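The genes described here encode contractile proteins that are named for skeletal muscle and were read in mouse myocardium: the myosin light chains *Myl1* and *Mylpf*, the troponins *Tnnt1*, *Tnnt3*, *Tnni2* and *Tnnc2*, the fast myosin heavy chains *Myh1*, *Myh2* and *Myh4*, and the Z-disc protein gene *Actn3*. The members are all probes other than controls whose deposited gene symbol is one of these 10 genes, which gave 21 of the 56605 probes on the array, and 10 of its 27307 named genes. Of these, 9 probes of 6 genes passed the filter on dim probes and were compared between the groups. *Myl1* had lower values in the NEXN-S437E hearts on all 3 of its tested probes, by more than 2-fold on 2 of them. *Tnnt1* had higher values there on both of its probes, by less than 2-fold. None of these *Myl1* and *Tnnt1* probes passed an adjusted p of 0.05. Most probes of the fast heavy chains, *Actn3* and *Tnnc2* were not well above background.

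A striated muscle sarcomere contracts when myosin heavy chains, each carrying an essential and a regulatory light chain, pull on actin filaments, and troponin on those filaments switches the pull on with calcium. Troponin T anchors the complex to tropomyosin, troponin I inhibits and troponin C binds calcium. Most of these proteins have isoforms from separate genes for fast skeletal, slow skeletal or cardiac muscle. Some of the genes serve both heart and slow muscle. The adult heart uses mainly the cardiac set, while some skeletal or fetal isoforms are found at higher levels in the developing or stressed heart.

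RNA came from the myocardium of male C57BL/6J *Clk4*-cKO mice injected with AAV NEXN-WT (n = 3) or with AAV NEXN-S437E (n = 3), with 1 Agilent 8x60K one-colour array per sample. All 6 mice carried loxP-flanked *Clk4* and *α-MHC-MerCreMer*, a tamoxifen-inducible Cre made in cardiomyocytes, so *Clk4* was deleted in the cardiomyocytes of both groups and no heart with intact *Clk4* was compared. Per the methods, virus with the CMV promoter was given at 5 weeks of age and tamoxifen (25 mg/kg/day for 5 days) at 6 to 8 weeks, and NEXN-S437E carries a glutamate that mimics phosphorylation of the actin-binding Z-disc protein nexilin. The methods place the analysis of the cardiac phenotype 3 weeks after tamoxifen was begun, and do not say separately when these hearts were taken for RNA or whether atria were included.

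Levels are given as the log2 of the background-subtracted signal minus the 75th percentile of that array, so 0 is the percentile itself and 1 unit is 2-fold. They compare arrays for a given probe and not a probe with another probe. For NEXN-WT the percentile signals were 273, 175 and 154, and for NEXN-S437E 110, 160 and 142. NEXN-WT replicate 1 stood apart over all tested probes: its mean absolute log2 difference from the other arrays was 0.38 to 0.56, against 0.19 to 0.33 among the other 5. In whole tissue, fewer cells that make a transcript and less of it per cell cannot be told apart.

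The sequences below are from some of the tested light chain and troponin probes, shown because each reads a defined piece of its transcript. *Myl1* A_51_P416858 and *Tnnt3* A_66_P110621, which were also tested, are not shown. Each probe is 60 bases long, and 6 of the 21 member probes have mm9 coordinates wider than that, which places them across an intron. The *Myl1* pair below is of that kind, spanning 4248 and 1202 bases of the genome, and so was read from spliced RNA. The first *Tnnt1* probe lies 5′ of the other, and of the second *Tnnt1* probe and the *Tnni2* probe only the last 30 bases are shown, with capitals on the letters AATAAA, the polyadenylation signal. AATAAA was searched on both strands and was on the printed strand of 3 of the 21 member probes (14.3%) and of 9.77% of all probes of this length, and on the other strand of 0 and 3.85%.
Myl1 A_52_P273120, chr1:66976853-66981100, minus strand: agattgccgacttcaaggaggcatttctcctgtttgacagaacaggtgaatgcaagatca
Myl1 A_55_P2499158, chr1:66971597-66972798, minus strand: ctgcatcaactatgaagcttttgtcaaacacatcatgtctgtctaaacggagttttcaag
Tnnt1 A_51_P362627, chr7:4460086-4460145, minus strand: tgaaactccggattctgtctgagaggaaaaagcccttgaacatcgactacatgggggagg
Tnnt1 A_55_P2088385, end of chr7:4456265-4456324, minus strand: actcaaAATAAAgtgcccccaggcatctgc
Tnni2 A_51_P355122, end of chr7:149630241-149630300, plus strand: gggagtacttggcctcgctccAATAAAgga

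*Myl1*, the essential light chain of fast skeletal muscle, had lower values with NEXN-S437E on each of the 3 tested probes, which read separate stretches of its transcripts. The downstream junction probe A_55_P2499158 had levels of 5.11, 5.32 and 4.76 under NEXN-WT, as against 3.64, 4.05 and 3.85 under NEXN-S437E. All 3 NEXN-S437E values lay below all 3 NEXN-WT values. The probe was 2.33-fold lower with NEXN-S437E (log2 difference −1.22 ± 0.19, adjusted p = 0.0763). Differences are NEXN-S437E minus NEXN-WT, with the standard error after the ± sign, and p was adjusted over all tested probes by the Benjamini-Hochberg method in limma.

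The upstream junction probe A_52_P273120 of *Myl1*, annotated to another transcript variant, had levels of 0.29, 0.66 and −0.02 with NEXN-WT and of −0.59, −0.66 and −1.12 with NEXN-S437E. The groups again did not overlap. It was 2.14-fold lower (log2 difference −1.10 ± 0.22, adjusted p = 0.109). The third tested probe, A_51_P416858 at chr1:66970948-66971007, the nearest of the set to the 3′ end, had levels of 5.19, 5.38 and 4.79 with NEXN-WT and 4.61, 4.24 and 4.01 with NEXN-S437E. The lowest NEXN-WT value and the highest NEXN-S437E value were closest on this probe, and its difference of 1.79-fold (log2 difference −0.84 ± 0.22, adjusted p = 0.153) was short of 2-fold. It passed 2-fold under 4 of the alternatives, among them the deposited normalized values, with log2 levels of 12.81, 12.79 and 12.12 against 11.85, 11.51 and 11.31 and a log2 fold change of −1.02. The fourth probe, A_55_P2924086, lies farthest upstream at chr1:66991114-66991173. It cleared the background on 1 array per group, with overlapping levels of −3.89 to −3.15 and −3.31 to −3.28, and was not tested.

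The 3 tested *Myl1* probes put the arrays in nearly the same relation: NEXN-WT replicate 2 was the highest and NEXN-WT replicate 3 the lowest of its group on all 3. After each probe was centred on the mean of its group means, the probes differed from each other by 0.15, 0.24 and 0.17 on average over the 6 arrays. NEXN-S437E replicate 1 was the exception, where the downstream junction probe lay 0.71 below the 3′ probe. Before scaling, the intensities of the 3′ probe were 9965, 7293 and 4267 with NEXN-WT and 2687, 3012 and 2284 with NEXN-S437E, where 2 of the 3 NEXN-WT arrays also had a higher percentile signal than any NEXN-S437E array. Without NEXN-WT replicate 1 the log2 fold changes were −1.19, −1.11 and −0.80 for the downstream junction, upstream junction and 3′ probes. The upstream junction probe was under 2-fold without NEXN-WT replicate 2 (−0.92), without NEXN-S437E replicate 3 (−0.93) or after normexp background correction (−0.63). Only NEXN-S437E replicate 1 shared its slide row with the NEXN-WT arrays, and within that row the log2 differences were −1.42, −0.90 and −0.52 for the same probes.

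*Myl1* has the cardiac counterparts *Myl3*, the essential light chain of the ventricle, and *Myl4*, that of the atrium and the fetal heart. *Myl3* had levels of 8.66, 9.14 and 9.19 with NEXN-WT and of 9.28, 9.43 and 9.53 with NEXN-S437E. Its log2 difference of 0.42 ± 0.18 (adjusted p = 0.295) was opposite in sign to that of *Myl1*, and was 0.25 without NEXN-WT replicate 1. The 2 tested probes of *Myl4* had log2 differences of −0.54 ± 0.18 and −0.62 ± 0.22 (adjusted p = 0.217 and 0.227), under 2-fold, and its remaining probe was below background on all 6 arrays. Neither counterpart passed the study's thresholds of 2-fold and an unadjusted p of 0.05, and whether their differences depart from that of *Myl1* was not tested.

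The tested genes with profiles most like that of the 3′ *Myl1* probe were *Fam20a*, *Lrrn2*, *Adamts15*, *Obsl1* and *Kcnn4*. Their mean absolute difference from it over the 6 arrays, after centring, was 0.10, 0.10, 0.10, 0.11 and 0.12 on the log2 scale, smaller than the 0.15 and 0.24 of the other tested *Myl1* probes. Their log2 fold changes were −0.63 to −0.75.

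*Mylpf*, the regulatory light chain of fast skeletal muscle, was at the edge of detection. Its probe A_52_P383572 had levels of −3.16, −3.06 and −3.22 with NEXN-WT and of −2.46, −2.41 and −3.30 with NEXN-S437E, where replicate 3 was below every NEXN-WT value and not well above background. The groups overlapped (log2 difference 0.42 ± 0.24, adjusted p = 0.393), and the difference was 0.26 without NEXN-S437E replicate 2 and 0.71 without NEXN-S437E replicate 3. Its other probe cleared the background on 1 array per group and was not tested. *Myl2*, the ventricular regulatory light chain, had a log2 difference of 0.30 ± 0.16 (adjusted p = 0.358), which was −0.058 under quantile normalization. *Myl7*, the atrial counterpart, was well above background on 2 arrays of each group, with levels of −4.11 to −3.26 and −3.80 to −2.76.

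**Figure D1:**
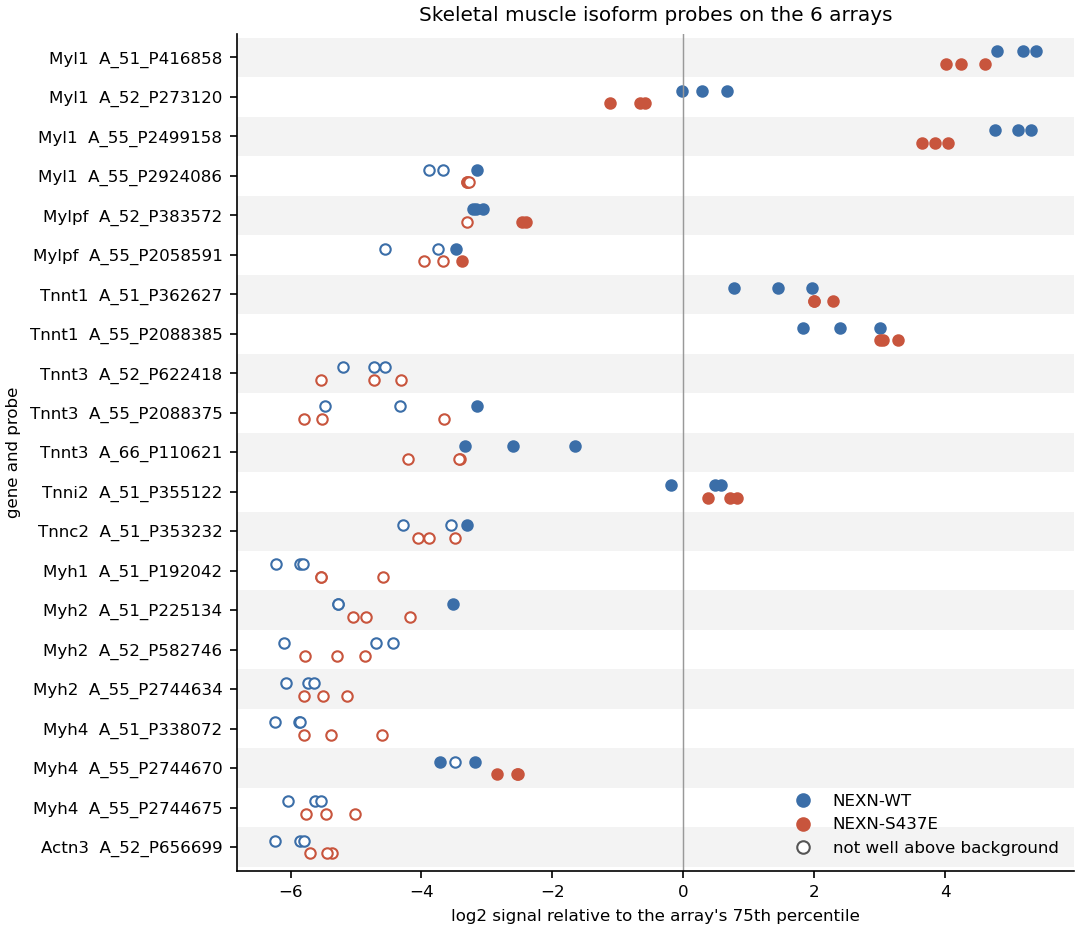
Level of each of the 21 skeletal isoform probes on each array, as log2 signal relative to the array's 75th percentile (horizontal axis), by gene and probe (vertical axis). Each point is 1 array, blue for NEXN-WT and red for NEXN-S437E, and open points were not well above background. All points of the 3 tested *Myl1* probes and of the *Tnnt1* and *Tnni2* probes are filled, and most other points are open.

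*Tnnt1*, the slow skeletal troponin T, gave the same difference on both of its probes, with higher values under NEXN-S437E. Probe A_51_P362627 had levels of 0.77, 1.44 and 1.96 with NEXN-WT and of 2.29, 1.99 and 2.00 with NEXN-S437E. Probe A_55_P2088385 had 1.83, 2.40 and 3.00 with NEXN-WT and 3.28, 3.00 and 3.04 with NEXN-S437E. NEXN-WT replicate 1 was the lowest array on both, and NEXN-WT replicate 3 lay just below the lowest NEXN-S437E value, so the groups were separate by less than the spread of either.

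The log2 fold changes of *Tnnt1* were 0.70 ± 0.28 on both probes, or 1.63-fold and 1.62-fold, with unadjusted p of 0.039 and 0.037 and adjusted p of 0.266 and 0.260 from limma. Neither reached 2-fold. Over the arrays the 2 probes differed by 0.03 on average after centring, less than the tested *Myl1* probes did. Before scaling, the intensities of the first probe were 466, 475 and 600 with NEXN-WT and 540, 636 and 568 with NEXN-S437E, which overlap. Without NEXN-WT replicate 1 the log2 fold changes were 0.39 and 0.41, with unadjusted p of 0.089 and 0.094.

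*Tnnt2*, the cardiac troponin T, differed in the same direction: its 2 tested probes had log2 differences of 0.43 ± 0.17 and 0.76 ± 0.24 (adjusted p = 0.265 and 0.200), and the second passed the study's thresholds without NEXN-WT replicate 2 (1.03). The first of them had levels of 6.52, 6.72 and 6.69 with NEXN-WT and of 6.78, 7.27 and 7.15 with NEXN-S437E. All 3 NEXN-S437E values were above the NEXN-WT values.

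*Tnnt3*, the fast skeletal troponin T, was near background and lower with NEXN-S437E. Its probe A_66_P110621, at chr7:149701806-149701865, had levels of −1.65, −2.61 and −3.33 with NEXN-WT, all well above background, and of −3.41, −3.43 and −4.20 with NEXN-S437E, none of them so. The groups did not overlap, but NEXN-WT replicate 3 lay just above NEXN-S437E replicates 1 and 2. On the scale used here and over all arrays, this was at least 1.64-fold less signal with NEXN-S437E (means of −2.53 and −3.68, adjusted p = 0.231 from limma). The bound does not take in the spread between arrays or a change of scale. This bound sets the NEXN-WT mean against the mean, over the NEXN-S437E arrays, of whichever is higher, the probe's level there or the lowest level at which any probe was well above background. The log2 difference, −1.15 with all arrays, was −0.71 without NEXN-WT replicate 1, −0.89 without NEXN-S437E replicate 3, −0.88 within the shared slide row and −0.10 after normexp background correction, each short of the study's thresholds. By the methods' t-test its unadjusted p was 0.105, which also ended the call. The other 2 *Tnnt3* probes were well above background on 0 and 1 arrays.

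*Tnni2*, the fast skeletal troponin I, was well above background on every array. Its probe had levels of −0.19, 0.57 and 0.48 with NEXN-WT and of 0.71, 0.81 and 0.38 with NEXN-S437E, which overlap. The log2 difference was 0.34 ± 0.23 (95% confidence interval −0.19 to 0.88, adjusted p = 0.454). It was 0.10 without NEXN-WT replicate 1, the lowest array, and 0.01 with array weights. On mm9 the probe lies 68 kb from the nearest *Tnnt3* probe, on the same strand. *Tnni1*, the slow skeletal and fetal troponin I, had a log2 difference of 0.04 ± 0.25, which was below 0 under 6 of the alternatives. *Tnni3*, the adult cardiac troponin I, had log2 differences of 0.57 ± 0.16 and 0.60 ± 0.24 on its 2 probes (adjusted p = 0.163 and 0.259), the second of which was 0.33 without NEXN-WT replicate 1.

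*Tnnc2*, the fast skeletal troponin C, cleared the background on a single NEXN-WT array, with levels of −4.28 to −3.31 against −4.05 to −3.49. Its partner *Tnnc1*, the troponin C of heart and slow muscle, had 6.79, 7.35 and 7.66 with NEXN-WT and 7.82, 7.82 and 7.81 with NEXN-S437E. NEXN-WT replicate 1 was again the lowest array, and the log2 difference was 0.55 ± 0.22 (adjusted p = 0.265), or 0.31 without that array.

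**Figure D2:**
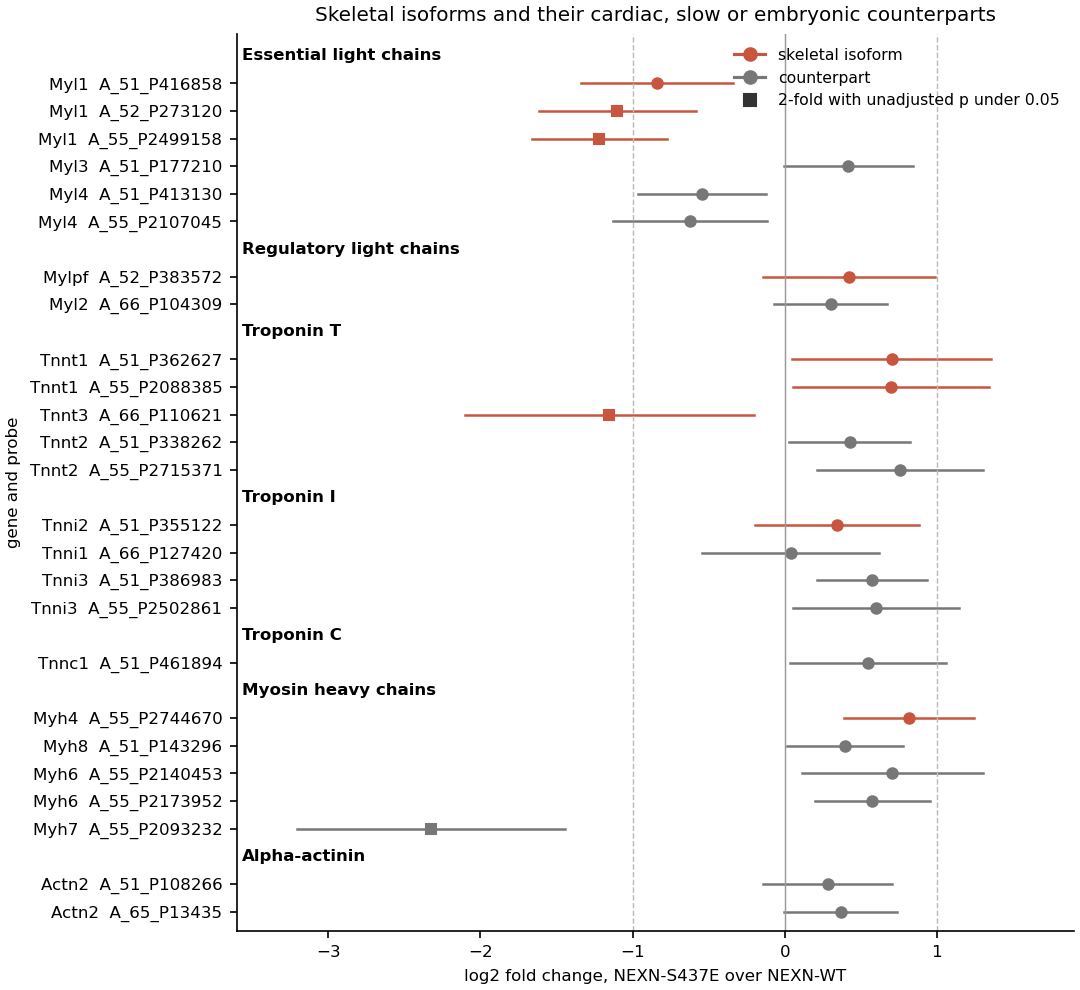
Log2 fold change of NEXN-S437E over NEXN-WT (horizontal axis) with 95% confidence intervals from limma, for the tested skeletal isoform probes (red) and the cardiac, slow or embryonic counterparts (grey), by gene and probe (vertical axis). Squares passed 2-fold with an unadjusted p under 0.05, dashed lines mark 2-fold, and each estimate rests on 3 arrays per group. *Myl1* and *Myl4* lie below 0 while *Myl3* lies above, and *Tnnt1* lies beside *Tnnt2*.

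The fast heavy chains form a cluster on chromosome 11, where on mm9 the *Myh1* probe lies 27 kb from those of *Myh2* and 14.3 kb from those of *Myh4*. The *Myh1* probe and 2 of the 3 probes of *Myh2* did not clear the background on any of the 6 arrays, and the third *Myh2* probe cleared it on 1 NEXN-WT array and on no other. These genes are close copies of each other, so their own signal and that of a relative cannot be told apart with certainty, although no pair of member probes of different genes shared more than 12 bases in a row.

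*Myh4*, the fastest heavy chain, had 1 tested probe, A_55_P2744670, which spans chr11:67052302-67054117 and is annotated to a partial transcript variant. Its levels were −3.71, −3.18 and −3.48 with NEXN-WT and −2.53, −2.54 and −2.85 with NEXN-S437E. The groups did not overlap (log2 difference 0.82 ± 0.18, adjusted p = 0.133 from limma), and the difference of 1.76-fold was under 2-fold. It was well above background on 2 NEXN-WT and all 3 NEXN-S437E arrays. The other 2 *Myh4* probes did not clear the background on any of the 6.

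For such dim probes the scale itself differed between the groups: the lowest level at which any probe was well above background was −4.00, −3.56 and −3.55 for NEXN-WT and −3.08, −3.50 and −3.23 for NEXN-S437E. The part of this in the *Myh4* and *Mylpf* differences was not tested. Before scaling, the *Myh4* intensities were 20.8, 19.3 and 13.8 with NEXN-WT and 19.1, 27.4 and 19.7 with NEXN-S437E, which overlap.

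*Actn3*, the fast fibre alpha-actinin, did not clear the background on any of the 6 arrays, while 2 of the 3 probes of *Actn2*, the cardiac alpha-actinin, cleared it on all 6, with log2 fold changes of 0.28 and 0.37 (adjusted p = 0.439 and 0.292), which were 0.11 and 0.24 without NEXN-WT replicate 1. Among heavy chain counterparts, *Myh8*, the perinatal skeletal chain, cleared the background on all 6 arrays with 1 of its 4 probes and on none with the others, and that probe had a log2 difference of 0.39 ± 0.17 (adjusted p = 0.278). The embryonic chain *Myh3* was below background on all 6. *Myh6*, the adult mouse cardiac chain, had log2 fold changes of 0.58 and 0.71 on its 2 probes, both under 2-fold, and the second was 0.42 without NEXN-WT replicate 1. The tested probe of *Myh7*, the slow skeletal and fetal cardiac chain, had levels of 7.73, 6.10 and 6.89 with NEXN-WT and of 4.79, 4.21 and 4.74 with NEXN-S437E, without overlap, a log2 difference of −2.33 ± 0.38 (adjusted p = 0.082).

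Over the member list, 3 of the 9 tested probes, of *Myl1* (2) and *Tnnt3*, were lower by the study's thresholds of 2-fold and an unadjusted p of 0.05, against 1.78% of all 22998 tested probes. The *Tnnt3* probe was tested only because it was well above background with NEXN-WT, where it was higher, and among the 6 member probes well above background on all 6 arrays, 2 were lower, both of *Myl1*, against 1.14% of all probes under that filter. By the methods' t-test 2 of the 9 were lower, against 1.29% of all tested probes. None was higher by the same thresholds, against 0.735% of all tested probes. At an adjusted p of 0.05, 0 of the 9 passed, against 0.161%, and 7 of them had an unadjusted p under 0.05, against 17.2%. Without NEXN-WT replicate 1, the unadjusted limma p was above 0.05 for both *Tnnt1* probes (0.089 and 0.094) and for *Tnnt3* (0.064). Over all tested probes 3183 were then under 0.05, against 3965 with all arrays. The groups did not overlap on 4 probes that were lower and 3 that were higher, against 9.17% and 18.7% of all tested probes. The median log2 fold change was 0.34 over the tested members and 0.09 over all tested probes. Without NEXN-WT replicate 1 these were 0.10 and 0.05, where the member in the middle was *Tnni2* both times. Of the 9, 3 passed the filter through 1 group alone (*Tnnt3* and *Mylpf* through NEXN-WT, *Myh4* through NEXN-S437E), and 12 probes were not tested.

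**Figure D3:**
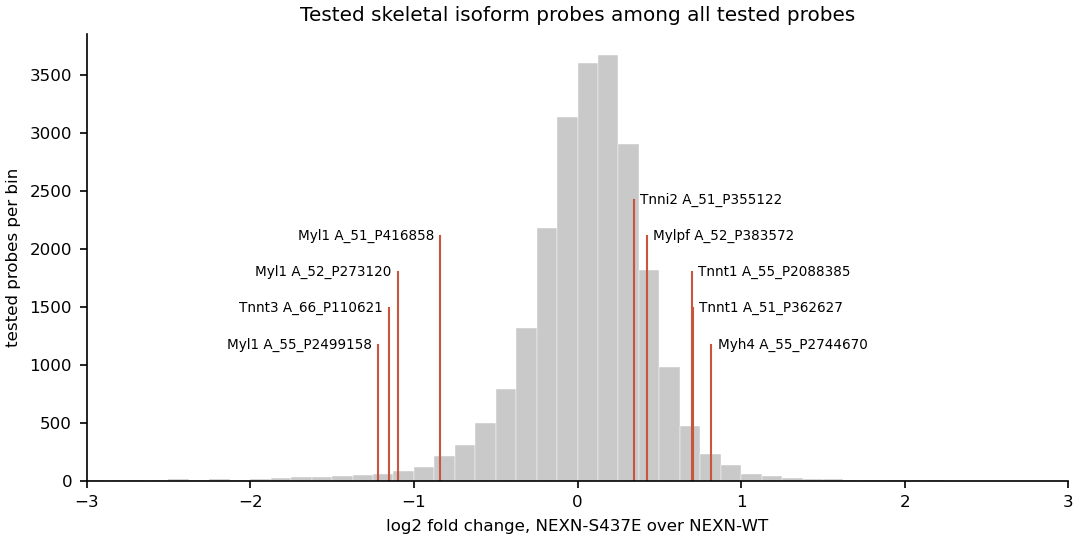
Number of tested probes (vertical axis) by log2 fold change of NEXN-S437E over NEXN-WT (horizontal axis, shown from −3 to 3), with the 9 tested skeletal isoform probes as red lines whose heights carry no value. *Myl1* and *Tnnt3* lie to the left, and *Tnnt1* and *Myh4* to the right of the median of 0.09.

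Other skeletal muscle genes were read for comparison. Of 17 further contractile genes, 11 were tested, 1 was lower and 0 higher by the study's thresholds, the median difference being 0.13. The lower gene was *Acta1*, skeletal alpha-actin, which the fetal and the stressed heart also use. Its levels were 5.65, 7.01 and 6.57 with NEXN-WT and 5.36, 4.98 and 5.04 with NEXN-S437E, a log2 difference of −1.28 ± 0.32 (adjusted p = 0.146). The groups did not overlap, with NEXN-WT replicate 1 nearest to the NEXN-S437E arrays, and without it the value was −1.66. *Acta1* was short of the study's thresholds without NEXN-WT replicate 2 (−0.98) and with the slide row as a block (−1.05, with an unadjusted p above 0.05). The count of higher genes was 1 with the slide row as a block, at 1.5-fold, and without NEXN-WT replicate 2 or 3 or NEXN-S437E replicate 2 or 3. That gene was *Tmod4*, a tropomodulin that caps actin filaments in skeletal muscle, named here after its values were seen. Its 3 tested probes had log2 differences of 0.97, 0.98 and 0.96, just under 2-fold (adjusted p = 0.161, 0.221 and 0.163), and of 1.17, 1.38 and 1.34 with the slide row as a block. NEXN-WT replicate 1 was the lowest array on all 3 (1.66 against 2.70 and 2.89 with NEXN-WT on A_55_P1976574). Without it the count of higher genes was 0. Without the filter on dim probes the count was also 1, from a probe of *Mybpc1* (1.33).

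Of 16 genes of skeletal excitation and energy supply, 12 were tested, 0 were lower and 1 was higher, the median difference being 0.43. Their mean log2 level was 1.39, 1.99 and 2.11 with NEXN-WT and 2.29, 2.12 and 2.09 with NEXN-S437E, so NEXN-WT replicate 1 was the lowest array. The higher gene was *Cacna1s*, the voltage sensor of skeletal muscle, with levels of 1.10, 2.02 and 2.56 with NEXN-WT and of 3.40, 2.74 and 2.75 with NEXN-S437E. Its log2 difference was 1.07 ± 0.36 (adjusted p = 0.221). NEXN-WT replicate 1 was again the lowest array, and without it the value was 0.67, under 2-fold. *Cacna1s* was short of the study's thresholds under 7 of the alternatives. It was under 2-fold also without NEXN-S437E replicate 1 (0.85), with array weights (0.76), after normexp correction (0.95), with the percentile over detected probes (0.99) and after quantile normalization (0.998), and its unadjusted p by the methods' t-test was above 0.05.

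Myogenic factor and neuromuscular synapse genes were mostly below background, unlike the excitation and energy genes above. Of 14 such genes on the array, 11 were below background on all 6 arrays, among them *Myod1*, *Myog*, *Myf5*, *Myf6*, *Pax3*, *Pax7* and *Chrna1*. Of all spots, 41.9% to 47.8% were well above background on an array.

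**Figure D4:**
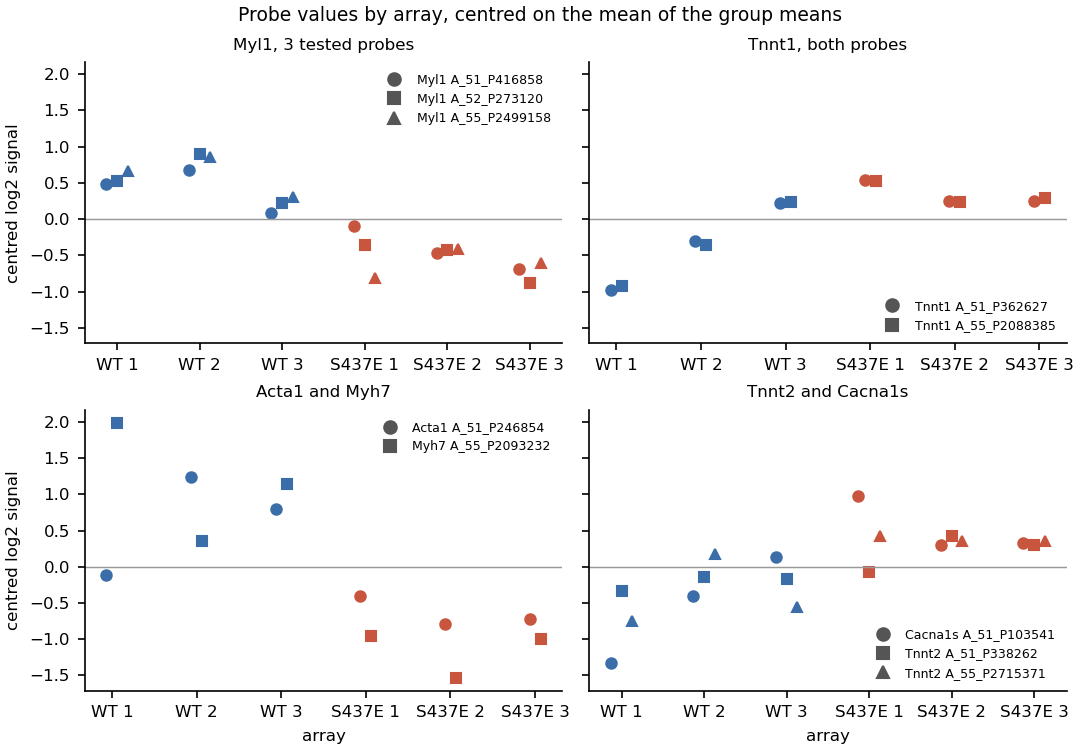
Log2 signal of single probes on each array (horizontal axis), each probe centred on the mean of its NEXN-WT and NEXN-S437E means (vertical axis). Blue marks NEXN-WT and red NEXN-S437E, and shapes mark probes. *Myl1* separates the groups on all 3 probes, whereas NEXN-WT replicate 1 is the lowest array for *Tnnt1* and *Cacna1s*.

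Markers of other cells also differed between the groups. A list gene counts if any of its tested probes passed. With 1 probe per gene, 317 of 16175 probes on the array were lower and 124 higher. Of 7 fibroblast genes, 4 were lower (*Postn*, *Col1a1*, *Col1a2* and *Col3a1*), with a mean log2 level over the tested genes of 5.61 to 6.63 with NEXN-WT and 4.57 to 4.70 with NEXN-S437E. *Dcn*, *Lum* and *Pdgfra* were under 2-fold, with log2 differences of −0.08, −0.73 and −0.86. Of 6 T and NK cell genes, 4 were lower (*Cd3d*, *Cd3g*, *Ccl5* and *Nkg7*), with −0.54 to 0.20 against −2.53 to −2.15. Of 8 atrial genes, 5 were tested and *Nppa* and *Dkk3* were lower, with a mean log2 level of 2.38 to 2.70 against 1.41 to 1.73. *Stard10* and *Nr2f2*, which passed neither threshold, had log2 differences of 0.69 and −0.30 (adjusted p = 0.339 and 0.345). The NEXN-WT levels of *Stard10* were −1.12, 0.07 and 0.29, with replicate 1 the lowest array. Among defining atrial genes *Bmp10* was below background on all 6 arrays, and *Sln* was well above it on 2 NEXN-WT and 1 NEXN-S437E arrays. Of 5 hypertrophy genes, *Nppa*, *Myh7* and *Acta1* were lower, with a mean log2 level of 6.99 to 7.18 against 5.85 to 6.04. The 2 probes of *Nppb* had log2 differences of −0.78 and 0.04 (adjusted p = 0.134 and 0.924 from limma). *Ankrd1* had −0.68, also under 2-fold. Of 5 smooth muscle and 8 adipocyte genes, 4 and 2 were tested and none passed the study's thresholds, with mean log2 levels of 3.53 to 3.90 against 3.17 to 3.90, and of 6.04 to 6.52 against 6.64 to 6.80. *Plin1*, *Ucp1* and *Retn* were below background throughout. Of 13 cardiac partner genes, 12 were tested and *Myh7* alone was lower by these thresholds, with a mean log2 level of 7.34 to 7.58 against 7.57 to 7.59. The part of these cells in the *Myl1*, *Tnnt1* and *Tnnt3* values was not tested.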

How the data were processed

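Each array was read by the authors with Agilent Feature Extraction 10.7.1.1, and the deposited values per spot are intensities after background subtraction. The authors also deposited normalized log2 values, whose software is not given in the sources used here, and which served as an alternative. Groups came from the sample titles. Spots marked as outliers were left out after log2 scaling to the 75th percentile of all spots other than controls, and spots of a probe were averaged. A probe was tested where, in NEXN-WT or in NEXN-S437E, all 3 arrays read it well above background. Under 50% of spots were so (41.9% to 47.8%), and no spot was saturated. Precision is limited by how far signals stood over background and by having 3 arrays in a group. The labels do not name animals, and the study's legend for the arrays gives 3 animals in each group.

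NEXN-S437E was compared with NEXN-WT with limma 3.58.1 in R 4.3.3 (data.table, version 1.17.8) over all tested probes, with Benjamini-Hochberg adjustment, and the code was tested on simulated data. Calls used the study's thresholds, 2-fold with an unadjusted p of 0.05, and beside them an adjusted p of 0.05. Figures were made in Python 3.11.15 (matplotlib 3.10.9, pandas 2.3.3, numpy 2.4.6). Coordinates are those deposited, on mm9, and probes were not placed in exons. The mean log2 level of a list is taken over its tested genes, with the probe of highest mean for each gene.

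The members and the lists were chosen with earlier results of these data known. Named are all members, list genes past the study's thresholds, direct counterparts of members, the 5 genes most like the *Myl1* probe of highest mean signal, a rule used only to pick that probe, and list genes below background. The tested genes of the myogenic list are not reported here. The alternatives were quantile normalization, the percentile over detected probes, normexp correction (offset 50), the deposited log2 values, other filters on dim probes, outlier spots kept, the methods' t-test, replicate and slide row blocks, an intensity trend, array weights, 1 probe per gene, a 1.5-fold threshold and each array left out.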

Additional observations from a re-analysis of the deposited data

How the results depend on the processing

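The 9 tested member probes kept their sign under every alternative that could be run on them. The count of member probes lower by 2-fold with an unadjusted p of 0.05 was 3 as reported. It was 1 after normexp background correction and 1 with the slide row as a block. When 1 array was left out it was 1 to 4, and 1 without NEXN-S437E replicate 3. With 1 probe per gene it was 1, the *Tnnt3* probe (log2 difference −1.15). The *Myl1* probe kept there was the 3′ probe (−0.84), short of 2-fold, so no *Myl1* probe was counted. The count of higher member probes, 0 as reported, was 3 at the 1.5-fold threshold and 0 whichever array was left out. At an adjusted p of 0.05 the count of 0 was 1 after normexp correction and 1 with an intensity trend, both times the downstream junction probe of *Myl1*, where 26 and 80 probes of the whole array passed. It was 7 with estimated array weights, which ranged from 0.20 to 4.22 and gave 3820 such probes on the whole array, against 37 as reported, and 0 whichever array was left out.

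Over all tested probes, 410 were lower and 169 higher. These counts were 155 and 25 after normexp correction, 624 and 1645 without the filter on dim probes, 241 and 104 with probes well above background on all 6 arrays, and 994 and 1071 at 1.5-fold. Leaving out 1 array gave 260 to 551 lower and 101 to 349 higher. The cause of these shifts was not tested.

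Some counterparts changed sign. *Myl2* was −0.058 after quantile normalization and −0.087 in the deposited log2 values. *Tnni1* was −0.038 with the percentile over detected probes, −0.48 with the slide row as a block, and −0.16 to 0.30 when 1 array was left out (below 0 without NEXN-WT replicate 2 or 3 and without NEXN-S437E replicate 2 or 3).

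With the replicate number as a block, 3 member probes were lower and 0 higher, and 416 and 175 of all tested probes. The samples share only a number: deviations of equally numbered samples from their group means correlated by −0.15, −0.03 and −0.18. Signal close to background, and 3 arrays in a group, limited what could be seen for *Tnnt3*, *Mylpf*, *Tnnc2*, *Actn3* and the fast heavy chains.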
